A study of Mus musculus with 5 samples.

Results

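Mast4 is a long gene on mouse chromosome 13 that lies in the neighbourhood contacted by the Pik3r1 promoter region, and its contacts were read here from 4C-seq libraries of muscle and thymus. Its span in mm10, 102732486 to 103335099, is 602.6 kb long, and every DpnII restriction fragment whose listed position falls inside it was taken, 1332 of 292200 fragments on the chromosome. The bait lay at 101766365, inside Pik3r1, so Mast4 begins 966 kb and ends 1569 kb from it, on the higher-coordinate side. The choice of fragments used position alone and no measured value. In 4C-seq, crosslinked chromatin is cut and religated, and the fragments joined to a chosen bait are amplified and sequenced. A fragment is called covered here when it has at least 1 read.

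The strain was C57/Bl6 throughout, and chromatin was fixed with 2% formaldehyde for 10 min. There was 1 library of wild-type thymocytes sorted for both CD4 and CD8 (double positive, DP), from mice aged 4 weeks. Skeletal muscle nuclei gave 2 libraries of wild-type (WT) and 2 of GRko mice, labelled 10 to 12 weeks of age. GRko, labelled KO, is taken to mean that the glucocorticoid receptor gene was knocked out, which rests on background knowledge of the study and not on the labels. Neither the cells that lost the gene nor the animals behind each replicate are given, so the p-values below describe only how far these libraries spread. Replicate 1 of each muscle group and the DP library had reads of 29 nt after the bait sequence was removed, and both replicates 2 had 23 nt. DNA contacts carry no RNA, so tissue identity and genotype could not be checked from these counts.

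Mast4 encodes a kinase of the microtubule-associated serine/threonine kinase family, which carries a kinase domain and a PDZ domain. Pik3r1 encodes p85α, the regulatory subunit that holds the catalytic subunit of phosphoinositide 3-kinase and brings it to activated receptors, the insulin receptor in muscle among them. In general, ligation to a bait becomes rarer with linear distance, and domain borders and loops modify that decline. A read on a Mast4 fragment is therefore taken to mean that the fragment was near the Pik3r1 bait in some nuclei. It does not mean that either gene was expressed. The counts cannot tell a contact made in more nuclei from one ligated more readily in each nucleus.

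The sequences below show the Pik3r1 start nearest the bait, the start of Mast4 and the start of Gm30050, a noncoding gene inside Mast4. Gm30050 holds a fragment with reads in every library, though only 1 in DP thymocytes and 3 in WT replicate 2. All are from RefSeq (assembly GRCm38.p6, equal to mm10 in its coordinates), 250 bases before to 50 bases after the first base of the gene, written 5′ to 3′ on the gene's strand, with DpnII sites (GATC) in capitals. Mast4 runs on the minus strand, so its start at 103334492 is its far end seen from the bait, 1568 kb away, and its 3′ end is the near one. The annotated gene ends shortly beyond that base.
Pik3r1, chr13:101768168-101768467, minus strand: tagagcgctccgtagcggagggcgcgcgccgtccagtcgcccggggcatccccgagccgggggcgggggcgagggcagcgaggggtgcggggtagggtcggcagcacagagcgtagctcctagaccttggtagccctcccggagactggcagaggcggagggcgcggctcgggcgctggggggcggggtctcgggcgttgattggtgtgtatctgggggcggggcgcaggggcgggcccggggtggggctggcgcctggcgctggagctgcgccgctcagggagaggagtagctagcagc
Mast4, chr13:103334443-103334742, minus strand: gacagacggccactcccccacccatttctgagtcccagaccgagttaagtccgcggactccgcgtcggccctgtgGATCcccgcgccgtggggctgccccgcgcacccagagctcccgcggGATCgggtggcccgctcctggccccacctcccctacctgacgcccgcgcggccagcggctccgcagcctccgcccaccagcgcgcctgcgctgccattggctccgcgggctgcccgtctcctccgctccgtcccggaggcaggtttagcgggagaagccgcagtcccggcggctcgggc
Gm30050, chr13:103096810-103097109, plus strand: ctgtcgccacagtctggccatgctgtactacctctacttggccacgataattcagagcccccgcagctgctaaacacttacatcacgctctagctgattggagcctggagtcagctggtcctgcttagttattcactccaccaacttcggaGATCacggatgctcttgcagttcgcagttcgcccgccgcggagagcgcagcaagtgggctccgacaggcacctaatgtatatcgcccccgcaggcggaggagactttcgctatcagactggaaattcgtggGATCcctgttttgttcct
The Pik3r1 window printed holds no GATC, while those of Mast4 and Gm30050 hold 2 each. Another annotated Pik3r1 start, at 101692630, is not printed, and its window holds 1. Of 1527 such windows on chromosome 13, 48.9% hold at least 1 GATC and 16.8% at least 2, on either strand, since the site reads the same on both. A listed fragment position is the midpoint between neighbouring GATC sites, as found for 344 of 344 pairs of sites within these windows. The 2 sites at 103334618 and 103334664 thus bound a fragment listed at 103334641.

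Chromosome 13 reads ran from 1317351 in GRko replicate 2 to 8993436 in DP thymocytes. Outside 10 kb around the bait, which was left out of all totals, covered fragments ran from 3496 to 13535 in the same libraries, at a mean of 335 to 559 reads each. PCR copies cannot be told from separate ligations, so covered fragments are given beside reads, and intervals cover counting error only.

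Reads reached 789 of the 1332 Mast4 fragments (59.2%) in at least 1 library. The DP library covered 416 of them, or 31.2% (95% Wilson interval 28.8 to 33.8). WT muscle replicates 1 and 2 covered 403 (30.3%) and 170 (12.8%), and GRko replicates 1 and 2 covered 212 (15.9%) and 94 (7.06%). DP thymocytes and WT replicate 1 therefore covered nearly equal numbers of Mast4 fragments, although the DP library had more covered fragments in all. In reads, Mast4 held 177871 in DP thymocytes, 164110 and 99887 in the WT pair, and 103409 and 23321 in the GRko libraries. Mast4 makes up 0.456% of the chromosome's listed fragments but 2.69% to 4.31% of the covered ones, depending on the library. As a share of covered fragments outside 10 kb, Mast4 took 3.07% in DP thymocytes (95% Wilson interval 2.80 to 3.38), 4.31% and 3.66% in the WT pair, and 4.24% and 2.69% in the GRko libraries.

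The reads were carried by a minority of fragments. The 10 most-read fragments held 18.4% of Mast4 reads in DP thymocytes and 25.6% in WT replicate 1, but 63.8% in WT replicate 2, 48.5% in GRko replicate 1 and 65.9% in GRko replicate 2. In DP thymocytes 43 fragments made up the larger part of the Mast4 reads and in WT replicate 1 28 did, against 7, 11 and 7 in the other libraries in the same order. The 3 libraries with the fewest chromosome 13 reads thus rest on fewer fragments. The most-read fragment differed in every library. It lay at 102746966 in DP thymocytes (4415 reads), at 103225131 in WT replicate 1 (8592), at 103012880 in WT replicate 2 (13835), at 102754425 in GRko replicate 1 (7805) and at 102732791 in GRko replicate 2 (2667). That of WT replicate 2 held 13.9% of the library's Mast4 reads and had 0 reads in each of the other 4 libraries. Fragments with 1 read were 6.97% of those covered in DP thymocytes, 4.96% and 16.5% in WT and 10.4% and 19.1% in GRko. Some of these had 100 or more reads in a library of the other read length. They were 10.3% in DP thymocytes, 0% and 39.3% in WT and 50% and 33.3% in GRko. Of fragments with 0 reads, 4.69%, 6.67%, 24.9%, 5.45% and 26.7% did, in the same order. Whether single reads record contacts was not tested.

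**Figure D1:**
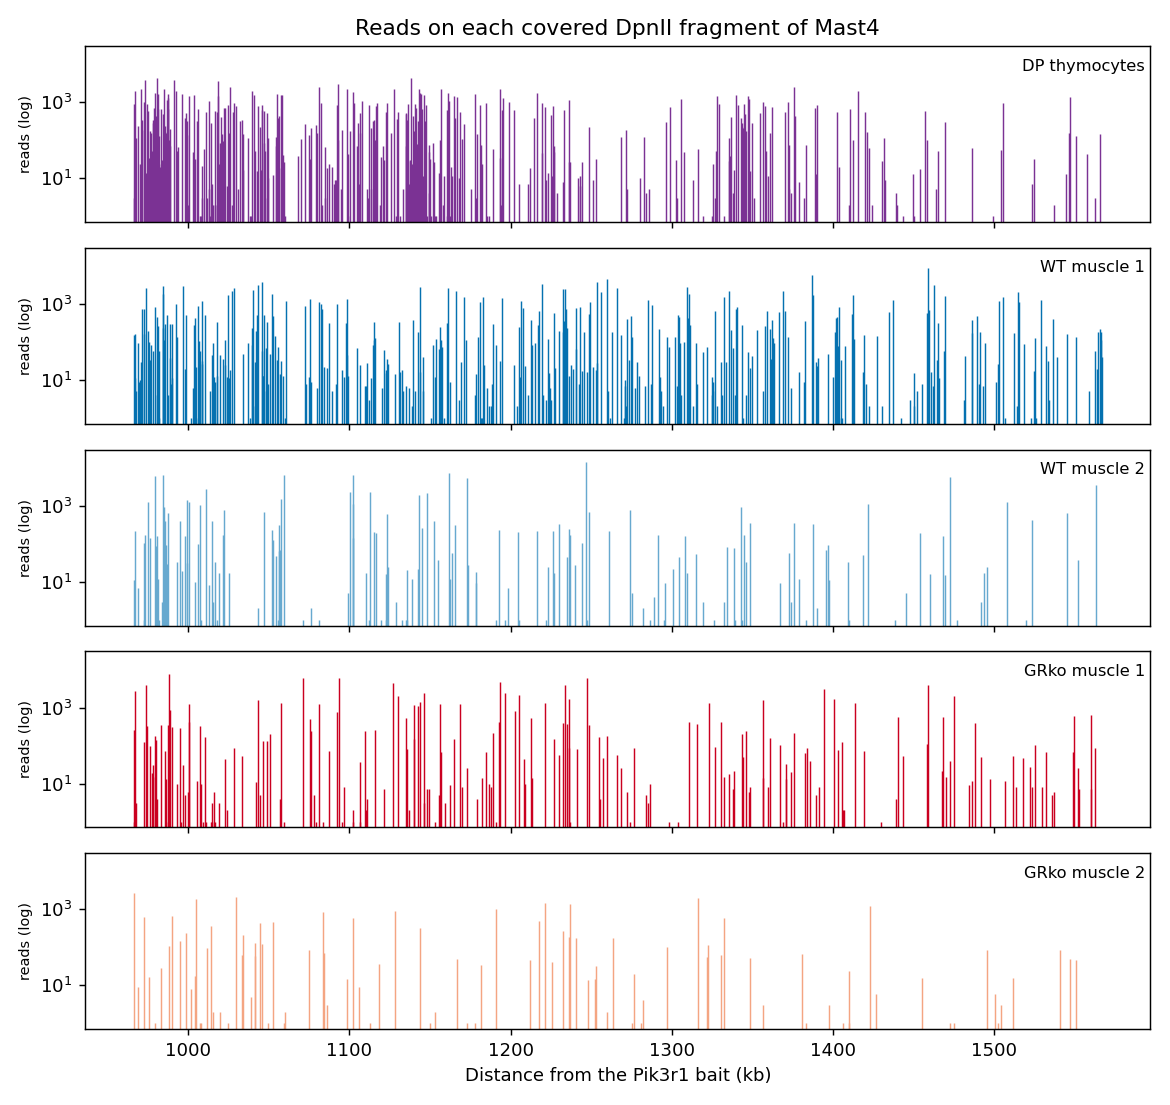
Reads on each covered DpnII fragment of Mast4 (vertical lines, log axis) against distance from the Pik3r1 bait in kb, one panel per library. DP thymocytes and WT muscle replicate 1 show 416 and 403 lines, GRko muscle replicate 2 shows 94, and lines are densest toward the near, 3′ end of the gene.

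Along the gene, coverage was higher in the segment nearest the bait, at the 3′ end, than in the one farthest from it in every library, but the shape differed between the DP library and muscle. In 6 equal segments of 100.4 kb, counted from the bait side, DP thymocytes covered 57.8% and 58.6% of fragments in the first and second segments. In the following 4 they covered 21.6%, 26.7%, 15.9% and 6.52%. The Wilson intervals of the segments on either side of this step in DP thymocytes were 51.7 to 65.2 and 16.8 to 27.4. They cover counting error only and take the fragments of 1 library as independent. The border was picked from these same values as the largest drop, so the intervals do not test the step. WT replicate 1 covered 41.4%, 33.0%, 30.7%, 37.2%, 21.7% and 17.8%. WT replicate 2 covered 21.9%, 16.7%, 10.8%, 13.1%, 8.41% and 5.22%. GRko replicate 1 covered 21.9%, 20.2%, 15.6%, 14.7%, 11.5% and 11.3%, and GRko replicate 2 covered 12.7%, 6.90%, 7.36%, 6.28%, 3.98% and 4.35%. Across the same border the covered share changed by a factor of 0.369 in DP thymocytes and of 0.931, 0.646, 0.772 and 1.07 in the WT and GRko libraries.

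The 2 nearest segments, a cut placed after the step had been seen, held 264 of 416 covered fragments in DP thymocytes (63.5%). They held 42.4% and 52.4% in WT muscle (mean 47.4% ± 7.02, SD, n = 2) and 45.3% and 48.9% in the GRko libraries (47.1% ± 2.58). The DP value lay above all 4 muscle libraries, which ran from 42.4% to 52.4%. With the 3496 most-read fragments of every library, so that the number of fragments is equal, the share was 66.9% in DP thymocytes, 39.3% and 53.5% in WT and 40.6% and 48.9% in the GRko libraries. In reads it was 72.3% in DP thymocytes, 38.4% and 60.9% in WT and 52.3% and 57.6% in the GRko libraries. The DP value was the highest of the 5 under each of these counts. Its distance to the nearest muscle library exceeded the range of the 4 muscle libraries in covered fragments, but not in reads or at equal fragment number, and the lone DP library has no replicate. With the cut after 3 of the 6 segments, the nearer part held 75.5% of covered fragments in DP thymocytes and 60.0% to 67.1% in muscle, but in reads 82.4% against 61.2% to 83.0%, so there the groups overlapped.

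At finer scale, in 12 segments of 50.2 kb, DP coverage stayed between 52.9% and 62.1% in the 4 nearest segments and was 26.2%, 18.0% and 15.5% in the next 3. It was 38.3% in the segment 1318 to 1368 kb from the bait (95% Wilson interval 29.1 to 48.4) and 17.1% beyond it. The same segment had 36.2% in WT replicate 1, 12.8% in WT replicate 2, and 18.1% and 6.38% in the GRko libraries. Muscle values there were within 7 percentage points of the segment before it. In the last segment, which holds the Mast4 start, coverage was 8.13% in DP thymocytes, 17.1% and 4.07% in WT and 11.4% and 2.44% in the GRko libraries.

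**Figure D2:**
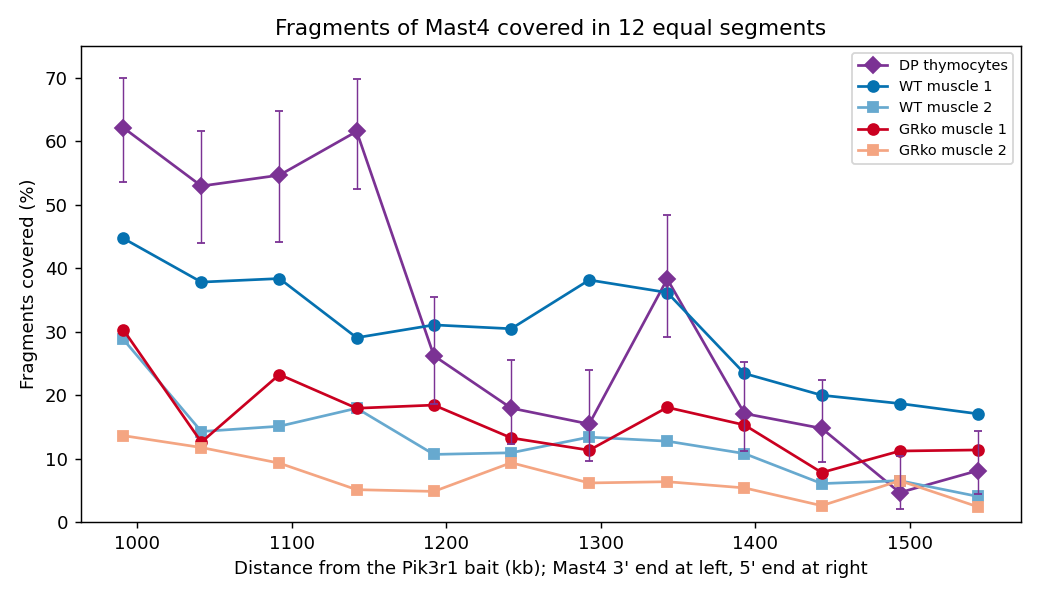
Percent of Mast4 fragments covered in 12 equal segments, plotted at the segment's middle distance from the bait in kb, one line per library, with 95% Wilson intervals on the DP library (counting error only). DP thymocytes stand at 52.9% to 62.1% in the 4 nearest segments and at 26.2% in the next, and WT muscle replicate 1 at 29.1% and 31.1% across the same border.

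The comparison of DP thymocytes with WT muscle asks whether the Pik3r1 promoter region meets Mast4 differently in the 2 tissues. Chromosome 13 was tiled into windows of the length of Mast4, with Mast4 as 1 window, and tested with edgeR. In covered fragments the log2 ratio of DP thymocytes over WT muscle at Mast4 was -0.38 ± 0.505 (SE; 416 fragments against 403 and 170), with an adjusted p of 0.616. Over the chromosome 12 of 191 windows passed, 6.28%, and Mast4 was not among them. In reads the ratio at Mast4 was -0.71 ± 0.517 with an adjusted p of 0.993. Of 194 windows 0 passed (0%), 4 had an unadjusted p under 0.05; with DESeq2 1 passed (0.515%), not Mast4. In covered fragments DESeq2 called 0 windows (0%), and 42 had an unadjusted p under 0.05 in edgeR. The fit takes the spread of the lone DP library from muscle, and tissue and age differ together. In simulated counts the tests on reads, in windows and in bins, missed nearly all changes, large ones included. The simulation gave every window or bin the same spread, while the fitted SE in reads differed between windows. It was 0.517 at Mast4 and 0.224 in the window next to it toward the bait. The simulation therefore does not tell what the test could find at Mast4. The lack of calls in reads does not show that values were equal.

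Within Mast4, the test of covered fragments per 50 kb bin passed in 0 of 76 bins within 2 Mb of the bait (0%), 22 of which had an unadjusted p under 0.05 in edgeR. Of the 12 bins whose midpoint lies in Mast4, 2 had an unadjusted p under 0.05 in edgeR. They run from 102750001 to 103350000, so they leave out the part of the gene nearest the bait and pass its far end. Log2 ratios of DP over WT were above 0 in 4 of the 12 and below 0 in 8. Their median was -0.51, against -0.15 over all 76. The bin at 102900001 to 102950000 held 68 covered fragments in DP thymocytes, 34 and 18 in WT and 23 and 7 in the GRko libraries (0.58 ± 0.338 on the log2 scale, SE, with an adjusted p of 0.24 in edgeR). The bin at 103000001 to 103050000 held 15 in DP thymocytes, 37 and 12 in WT and 16 and 12 in the GRko libraries (-1.47 ± 0.624, adjusted p = 0.142 in edgeR). The bin at 103250001 to 103300000 held 6 in DP thymocytes, 24 and 6 in WT and 14 and 5 in the GRko libraries (-2.05 ± 0.78, adjusted p = 0.121 in edgeR). In the nearer of these bins, shown for the highest ratio of the 12, the DP library had more covered fragments than any muscle library. In the farther ones, shown for the lowest ratios, it had fewer than WT replicate 1, without a call. The ratio did not fall evenly with distance, as it was -0.10 at 102800001 and 0.02 at 103100001.

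To hold distance constant, Mast4 was compared with the window at the same distance on the lower-coordinate side, 100197631 to 100800244, which lists 1632 fragments. Its stretch from 1400 to 1550 kb was nearly empty in every library. Per 50 kb, 0.625% to 1.27% of fragments there were covered in DP thymocytes and 0% to 2.55% in muscle. On the Mast4 side the same distances had 7.34% to 14.0% in DP thymocytes and 3.48% to 20.9% in muscle. The part of this stretch in the ratios below was not tested. In DP thymocytes that window held 422 covered fragments against 416 in Mast4. In WT muscle it held 156 and 44 against 403 and 170, and in the GRko libraries 91 and 42 against 212 and 94. Mast4 thus had 0.986 times as many covered fragments as its counterpart in DP thymocytes, 2.58 and 3.86 times in the WT pair, and 2.33 and 2.24 times in the GRko libraries. Per listed fragment these ratios were 1.21, 3.17, 4.73, 2.85 and 2.74, and in reads they were 0.876, 2.87, 7.36, 2.72 and 3.86. With the 3496 most-read fragments of every library, Mast4 held 124 against 115 in DP thymocytes, 145 against 45 and 142 against 38 in WT, and 143 against 54 and 94 against 42 in the GRko libraries. The DP value lay below all 4 muscle values on each of these scales, and the log2 ratio differed from the WT mean by -1.68, with a WT spread of 0.411 (SD, n = 2). With 1 DP library this difference was not tested, and the ratio alone does not show which of the 2 windows differs. At equal fragment number, the DP count in Mast4 (124) lay inside the muscle range of 94 to 145. In the lower window the DP count (115) lay above the muscle range of 38 to 54.

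**Figure D3:**
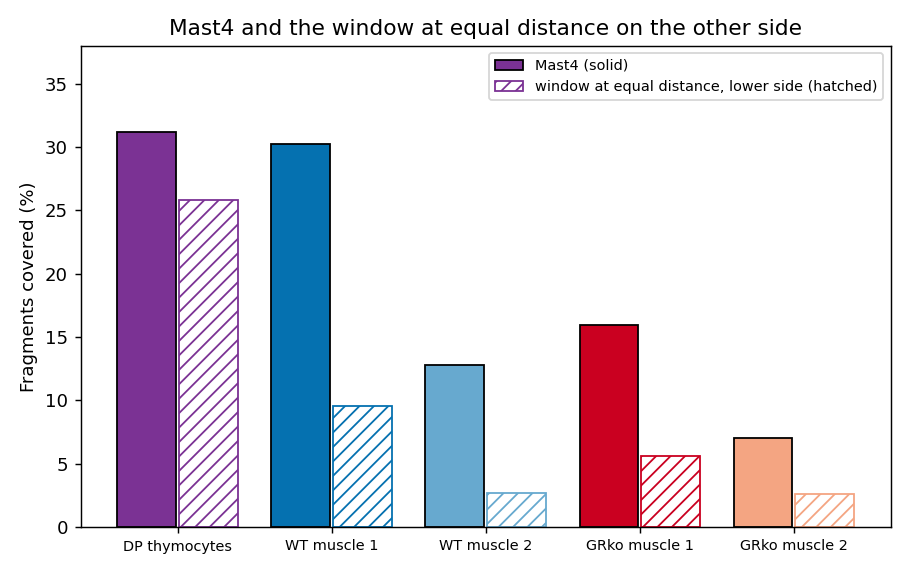
Percent of listed fragments covered in Mast4 (solid bars) and in the window at equal distance on the lower-coordinate side of the bait (hatched bars), for each library. The bars stand at 31.2% and 25.9% in DP thymocytes and at 30.3% and 9.56% in WT muscle replicate 1.

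Coverage of Mast4 lay between that of the equal windows on either side of it in all 5 libraries. The window next to it toward the bait (102129872 to 102732485), which holds Cd180, was covered at 57.7% in DP thymocytes, 57.2% and 32.0% in WT and 42.6% and 20.4% in the GRko libraries. The window beyond it (103335100 to 103937713) was covered at 12.2% in DP thymocytes, 12.5% and 4.45% in WT and 6.98% and 3.52% in the GRko libraries. DP thymocytes and WT replicate 1 were thus within 1 percentage point of each other in all 3 windows as wholes, while they differed within Mast4. In the next window (103937714 to 104540327), with Nln, Sgtb and Adamts6, DP coverage was 20.4%, and that of the WT libraries 10.5% and 3.58%.

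Within muscle, the genotypes were compared for the contact of the Pik3r1 promoter region with Mast4. No test of Mast4 as a whole passed its threshold. Mast4 held 3.86% ± 0.877 of chromosome 13 reads outside 10 kb in WT and 2.91% ± 1.30 in the GRko libraries (SD, n = 2 each), from 3.24% and 4.48% in WT and 3.83% and 1.99% in the GRko libraries. The groups overlapped, and the exact permutation test (two-sided) returned p = 0.667, where 2 against 2 libraries can give no less than 0.333. Between the libraries read at 29 nt GRko was higher by 0.596 percentage points, and between those read at 23 nt GRko minus WT was -2.49. In covered fragments the shares were 3.99% ± 0.463 in WT and 3.47% ± 1.10 in the GRko libraries (exact p = 0.667), with differences of -0.0695 points at 29 nt and -0.969 at 23 nt. Without GRko replicate 2, the library with the fewest reads, GRko muscle was 0.258 points above WT. The part of read length and depth in these differences was not tested. The 4 exact tests on Mast4 that were adjusted together had adjusted p of 0.889 or more.

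With edgeR over windows of equal length, the log2 ratio of GRko over WT at Mast4 was -0.41 ± 0.406 in reads (SE, adjusted p = 0.992) and -0.20 ± 0.416 in covered fragments (adjusted p = 0.999). In reads 0 of 193 windows passed (0%) and 9 had an unadjusted p under 0.05, while DESeq2 called 9 (4.66%), Mast4 not among them. In covered fragments 0 of 191 passed (0%), although 6 were under 0.05 before adjustment, and with DESeq2 0 passed. The balance of Mast4 with its counterpart on the lower side was 3.22 ± 0.905 in WT and 2.28 ± 0.0648 in the GRko libraries (SD, n = 2 each), in covered fragments. These libraries did not overlap, and the exact permutation test on log2 ratios gave p = 0.333, the smallest that it allows, and 0.889 after adjustment over 4 tests. The groups overlapped in reads and with at least 10 reads per fragment (exact permutation p = 0.667 in both), and without WT replicate 2 the difference in log2 ratio was -0.18 in place of -0.47. The 3 nearest segments held 63.6% ± 4.96 of covered Mast4 fragments in WT and 64.6% ± 3.36 in the GRko libraries (exact p = 1), and 75.5% in DP thymocytes. GRko minus WT in this share was 2.21 points at 29 nt and -0.0375 at 23 nt, and it was negative, at -2.42, without WT replicate 1 and, at -1.29, without GRko replicate 2.

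**Figure D4:**
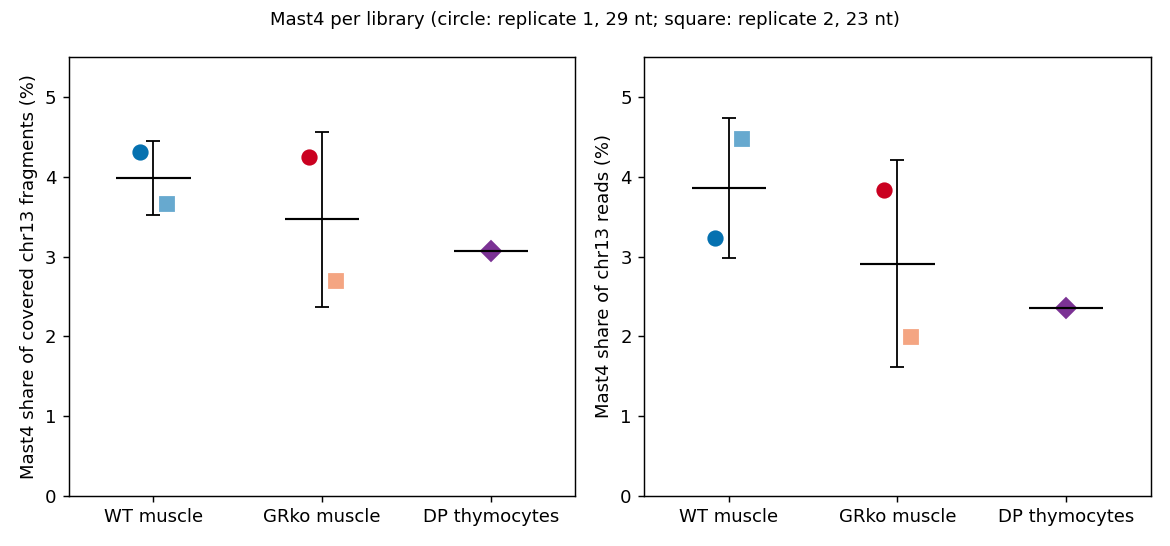
Mast4 share of covered chromosome 13 fragments (left) and of chromosome 13 reads (right) in percent, outside 10 kb of the bait. Points are libraries, bars are group means and whiskers SD (n = 2 for each muscle group, 1 DP library with no error); the GRko libraries span 1.99% to 3.83% of reads and enclose WT replicate 1 at 3.24%.

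In 10 kb bins all 61 parts of Mast4 had a covered fragment in at least 2 libraries, 20 in 4 and 37 in all 5, and WT replicate 1 left 0 bins empty, against 3 in DP thymocytes, 7 in WT replicate 2, 2 in GRko replicate 1 and 17 in GRko replicate 2. The bin at 102750001 to 102760000, 989 kb from the bait, was among the 3 of highest mean share in every group. It held 7.90% of Mast4 reads in DP thymocytes, 4.72% and 8.61% in WT and 9.09% and 3.25% in the GRko libraries. The adjoining bins were among the 3 highest in DP thymocytes (102740001) and in GRko muscle (102730001), but not in the other groups. That at 102740001 held 7.32% in DP thymocytes, 2.82% and 7.76% in WT and 5.02% and 0.202% in the GRko libraries. That at 102730001, at the 3′ end of the gene, held 6.03% in DP thymocytes, 1.27% and 0.505% in WT and 2.99% and 14.2% in the GRko libraries. The bin at 102900001 held 7.65% in DP thymocytes, 2.09% and 2.02% in WT and 4.25% and 0% in the GRko libraries. Only its far end, from 102907802 on, overlaps the noncoding gene Gm30106. The bin at 102860001 held 3.05% in DP thymocytes, 1.06% and 9.81% in WT and 5.79% and 2.68% in the GRko libraries. That at 103080001 held 0.0326% in DP thymocytes, 0.141% and 0.0551% in WT and 1.64% and 9.06% in the GRko libraries.

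Of the 59 Mast4 bins tested between the genotypes 0 passed in edgeR, none was under 0.05 before adjustment, and with DESeq2 0 passed. Over all 341 bins within 2 Mb of the bait 0% passed in edgeR, with 8 at an unadjusted p under 0.05, and DESeq2 called 4 (1.17%). Ratios of GRko over WT were below 0 in 40 of the 59 bins, with a median of -0.66 against -0.22 over all bins. Without WT replicate 1 they were below 0 in 27 of 51 bins, with a median of -0.23 against 0.37 over all bins. Without WT replicate 2 the median was -0.34 against -0.16, and without GRko replicate 1 it was -1.99 against -1.24. Between DP thymocytes and WT muscle 0 of 61 Mast4 bins passed in edgeR, 2 were under 0.05 before adjustment, and these 2 were called by DESeq2. Over all 367 bins 0% passed in edgeR, with 5 under 0.05 before adjustment, and DESeq2 called 12 (3.27%). Ratios of DP over WT were below 0 in 40 of 61 Mast4 bins, with a median of -1.09 against -0.01 over all bins. Without WT replicate 1 the median in Mast4 was 0.0016 and that over all bins 0.90.

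The 2 bins that DESeq2 called lie next to each other, 1249 and 1259 kb from the bait, in the stretch of low DP coverage. The bin at 103010001 held 287 reads on 4 fragments in DP thymocytes, 1905 on 8 and 14639 on 4 in the WT pair, and 6353 on 2 and 61 on 3 in the GRko libraries. DESeq2 gave it an adjusted p of 0.0462 and edgeR 0.991. Nearly all of its reads in WT replicate 2 came from the fragment at 103012880. The bin at 103020001 held 0 reads in DP thymocytes, 10422 on 6 fragments and 220 on 1 fragment in the WT pair, and 392 on 4 and 176 on 2 in the GRko libraries, with adjusted p of 5.57e-05 in DESeq2 and 0.991 in edgeR. As a share of Mast4 reads the first of these bins held 0.161% in DP thymocytes, 1.16% and 14.7% in WT and 6.14% and 0.262% in the GRko libraries.

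The start of Mast4 showed no read on any of the 4 fragments nearest its first base, listed at 103334351, 103334521, 103334641 and 103334799, in any library. The fragment at 103334641 is the short one between the 2 capital GATC sites printed above. Within 2 kb of the start, DP thymocytes and both GRko libraries covered 0 of 15 fragments, WT replicate 1 covered 4, with 353 reads, and WT replicate 2 covered 1, with 3 reads. Within 10 kb, 7 of 54 fragments were covered in DP thymocytes, 13 and 3 in WT and 7 and 2 in the GRko libraries. A fragment with 0 reads is one not detected at this depth, and short fragments were covered less often throughout the gene, as given below. Neither where the second enzyme cuts single fragments nor whether their reads can be placed uniquely was known here.

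The genes that lie inside Mast4 are noncoding genes and a pseudogene. Gm30106 (102907802 to 102956514) is the longest, and 56 of its 104 fragments were covered in DP thymocytes, 35 and 14 in WT and 22 and 7 in the GRko libraries. Its first part lies before the step in DP coverage and its end beyond it. Gm17160 (102762313 to 102768192), near the 3′ end, had 7 of 14 fragments covered in DP thymocytes, 3 and 5 in WT and 5 and 1 in the GRko libraries. Gm30050 (103097060 to 103100912) had 1 of 5 fragments covered in DP thymocytes, 3 and 2 in WT and 1 in each GRko library. The single fragment of the pseudogene Gm6211 had 3020 reads in GRko replicate 1 and 0 in the other 4 libraries.

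Single fragments were next compared between libraries. Of 1332, 543 had no read, 437 had reads in 1 library, 227 in 2, 101 in 3, 19 in 4 and 5 in all 5. The 5 common fragments lay at 102738912, 102745561, 102773589, 103098582 and 103114778. The one at 102738912 had 984 reads in DP thymocytes, 740 and 1 in WT and 126 and 643 in the GRko libraries. The one at 102745561 had 1782 reads in DP thymocytes, 810 and 6060 in WT and 179 and 1 in the GRko libraries. The one at 103098582, inside Gm30050 beyond the start printed above, had 1 read in DP thymocytes, 1564 and 3 in WT and 15 and 601 in the GRko libraries. No fragment had 10 or more reads in all 5 libraries, and 8 had that many in 4.

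At 10 reads or more, WT replicates 1 and 2 shared 36 fragments, 11.9% of the 303 and 30.3% of the 119. In WT replicate 1, 22.7% of all Mast4 fragments reached 10 reads, which is the base level for the second of these shares, and in replicate 2 8.93% did. GRko replicates 1 and 2 shared 10, 6.99% of 143 and 16.7% of 60, at base levels of 4.50% and 10.7%. WT replicate 2 and GRko replicate 2 shared 4, 3.36% of 119 and 6.67% of 60, at base levels of 4.50% and 8.93%. DP thymocytes and WT replicate 1 shared 111, 34.7% of 320 and 36.6% of 303, at base levels of 22.7% and 24.0%. With WT replicate 2 the DP library shared 54, 45.4% of the 119. It shared 58 with GRko replicate 1 and 23 with GRko replicate 2, 40.6% of 143 and 38.3% of 60. The base level for these shares was also 24.0%. Coverage in all libraries was higher near the bait, and the part of position and fragment length in these overlaps was not tested.

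What covered fragments had in common beyond position was length. Fragment lengths were estimated from the listed midpoints, to within 14 bases for a typical cut site. Of 266 fragments under 100 bp, 71.1% were covered in no library, against 48.0% of 227 between 100 and 200 bp, 38.5% of 304 between 200 and 400 bp, 28.3% of 307 between 400 and 800 bp and 18.0% of 228 over 800 bp. DP thymocytes covered 10.5% of the shortest class and 45.2% of the longest, WT muscle 10.9% and 6.02% of the shortest and 50.0% and 17.5% of the longest, and GRko muscle 6.02% and 3.01% and 27.2% and 10.5%. Fragments covered in no library had a median length of 176 bp, and those covered in 3 libraries 564 bp. Longer fragments were covered more often in every library when the ends of the range are compared, in both tissues and both genotypes.

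**Figure D5:**
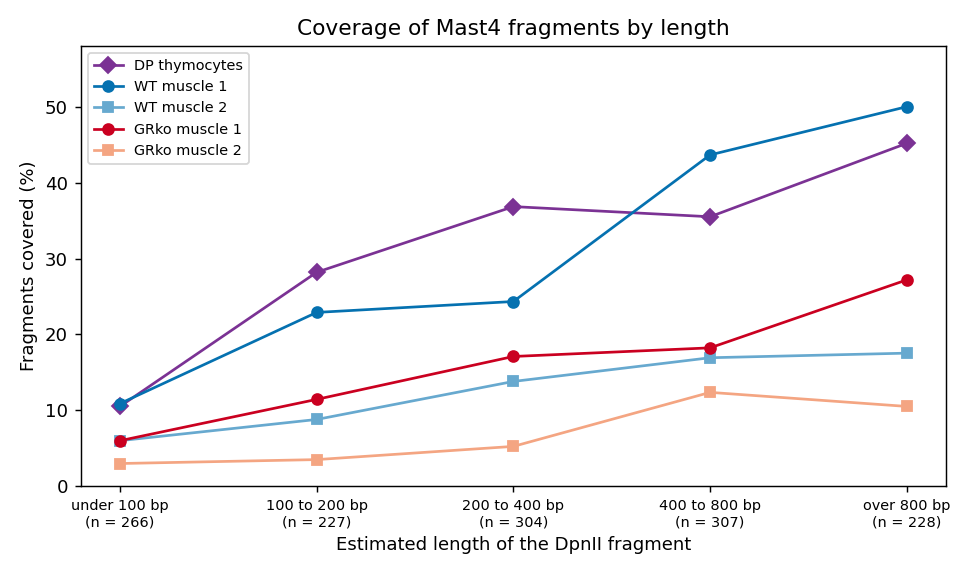
Percent of Mast4 fragments covered, by estimated DpnII fragment length class (number of fragments in brackets), one line per library. Coverage runs from 3.01% to 10.9% in fragments under 100 bp and from 10.5% to 50.0% in those over 800 bp.

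Among neighbouring genes, Cd180, which lies just on the bait side of Mast4, was covered more fully than Mast4 in every library, and Erbin, beyond its start, less fully. Cd180, a B-cell surface protein related to Toll-like receptors, had 15 of 19 fragments covered in DP thymocytes, 12 and 7 in WT and 9 and 2 in the GRko libraries. Beyond Mast4, the splicing regulator Srek1 was covered at 39.7% in DP thymocytes, 22.1% and 7.35% in WT and 10.3% and 8.82% in the GRko libraries. Erbin, a scaffold protein that binds the receptor ErbB2, was covered at 25.7% in DP thymocytes, 17.6% and 7.14% in WT and 12.4% and 4.76% in the GRko libraries. On the lower-coordinate side Slc30a5, a zinc transporter, was covered at 83.3% in DP thymocytes, 28.2% and 8.97% in WT and 16.7% and 7.69% in the GRko libraries. Gtf2h2, a subunit of the transcription and repair factor TFIIH, was covered at 30.5% in DP thymocytes, 6.10% and 1.22% in WT and 3.66% and 0% in the GRko libraries. DP coverage was above that of every muscle library in these and in the other listed genes on both sides of the bait, and the DP library had the most covered fragments in all.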

How the data were processed

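The authors deposited raw read counts per DpnII fragment of chromosome 13, with no normalization, and gave the bait's position in the file headers. The second enzyme was Csp6I, per the labels. The submitters' processing notes name bcl2fastq, Bowtie 1.0.0 and mm10, while no source used here gives the rule that assigned reads to fragments. The listed midpoints formed an unbroken chain over 1445 fragments in and around Mast4. Inside the bounds it gave fell 5 of 5 known sites, so no sign of filtered fragments was found there. These bounds reached up to 30 bases to either side of a site, so loss of the shortest fragments is not excluded. Genes came from RefSeq's GRCm38.p6 table.

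Library totals for shares and windows were counts outside 10 kb of the bait. For bins they were the counts within 2 Mb of the bait, also without the nearest 10 kb. Log2 ratios of bins are therefore relative to that region and not to the chromosome. Windows and bins with at least 10 reads (windows of covered fragments: 5) in 2 or more libraries entered the edgeR quasi-likelihood test (edgeR 4.0.16 under R 4.3.3), with DESeq2 1.42.0 as an alternative and Benjamini-Hochberg adjustment at 0.05. GRko was tested in the 4 muscle libraries and DP thymocytes in a fit of all 5. The SE of a log2 ratio is the one its F statistic implies. Single values were compared by exact permutation. Counts were simulated with the spread of these libraries, taken as the same for every window or bin. The fits of reads recovered almost none of the changes put in, and those of covered fragments recovered most. With a much smaller spread most were recovered in nearly all fits. Named bins were, per group, the 3 of highest mean share among those covered in all its libraries. Named fragments were the most-read of each library and those covered in all 5. Compared genes came from a list of 13. The members and lists were chosen with earlier results of these data known. The cut after 2 of the 6 segments, and the equal-number and per-fragment forms of the balance with the lower side, were chosen after seeing the data. Alternatives are named in the closing section.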

Additional observations from a re-analysis of the deposited data

How the results depend on the processing

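Of 133 alternative values, 121 kept the direction and side of the threshold of the reported value or moved by less than the WT spread, 6 moved further and 6 had the opposite sign. All of the 6 opposite signs were GRko against WT, where no measure had passed a test. The pair read at 29 nt alone gave 0.596 points for the share of reads, and the pair read at 23 nt alone -0.0375 for the 3 nearest segments. Leaving out 1 library moved the GRko minus WT difference from -1.87 to -0.0244 in the share of reads, from -1.30 to 0.258 in that of covered fragments and from -2.42 to 4.59 in the 3 nearest segments. It moved the edgeR log2 ratio from -0.57 to 0.086 in covered fragments. DP thymocytes minus WT moved from -1.50 to -2.82 points with reads within 2 Mb as the total. In covered fragments it moved from -0.912 to -1.38 with at least 2 reads, -1.55 with at least 10 reads, and -1.58 with totals within 2 Mb, and was smaller, at -0.558, with an equal number of fragments and, at -0.652, against all 4 muscle libraries. Leaving out a WT library moved it from -1.24 to -0.584 in covered fragments and from -2.12 to -0.884 in reads. DP thymocytes minus the WT mean in the log2 balance of Mast4 with the lower side moved from -1.68 to -2.39 in reads. DESeq2 called 2 bins in Mast4 where edgeR called 0. These moves all kept the DP value below WT, and their cause was not tested. With the replicate number, which is also the read length, as a block, 0 Mast4 bins were called and the edgeR ratios at Mast4 were -0.46 and -0.22 for GRko and -0.86 and -0.58 for DP thymocytes, in reads and covered fragments, none past the threshold. Same-numbered libraries deviated together in covered fragments (r = 0.382 across 191 windows) and not in reads (-0.0269 across 193), which with 2 pairs does not settle a pairing. The windows called over the chromosome between DP thymocytes and WT numbered 12 in edgeR, 23 with the block, 0 in DESeq2, 19 with all 4 muscle libraries as one group, 2 and 4 without WT replicates 1 and 2, and 23 and 21 without GRko replicates 1 and 2. Mast4 was in none of these lists.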

Other observations

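Mast4 was the most covered of 25 protein-coding genes of at least 300 kb on chromosome 13 in every library, and it is also the one nearest the bait. Arhgef28, a guanine nucleotide exchange factor on the lower side, was covered at 5.11% in DP thymocytes, 5.26% and 2.34% in WT and 2.63% and 1.61% in the GRko libraries. Arl15, a small GTPase on the side of Mast4, was covered at 10.9% in DP thymocytes, 5.00% and 3.07% in WT and 2.73% and 2.05% in the GRko libraries. Pde4d, a cAMP phosphodiesterase centred 7539 kb away on the side of Mast4, was covered at 8.01% in DP thymocytes, 4.48% and 2.43% in WT and 1.98% and 1.23% in the GRko libraries.

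The 3 genes whose share of covered fragments varied most like that of Mast4 over the 5 libraries were Arhgef28, Dip2c and Arsb, among 46 protein-coding genes with at least 5 covered fragments in every library. Their root mean square differences from Mast4 in log2 relative share were 0.174, 0.201 and 0.218. These 3 genes had no more than 36 covered fragments in any library, so counting error alone is large for them, and likeness over 5 libraries is a description only.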
